A study of Homo sapiens with 4 samples.

Results

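The heat shock and chaperonin families were described in 2 hepatic cancer stem cell (HCSC) lines and the 2 hepatocellular carcinoma (HCC) lines from which they were grown. Members were chosen by gene symbol alone: symbols that start with HSP or DNAJ (without HSPG2), or with CCT and a digit, and TCP1. The rule found 86 of the 16370 genes listed in the 4 count tables. They were 15 genes of the HSP70/HSP110 family, 5 of the HSP90 family, 6 of the small heat shock protein (HSPB) family, 2 of the mitochondrial HSP60/HSP10 pair, 43 of the J-domain (DNAJ) families, 10 of the CCT family and 5 other genes with an HSP symbol. Among these 5, HSPC072, HSPC157 and HSPC159 match the rule by symbol alone, since RefSeq now names the same gene IDs LINC00652, LINC00339 and LGALSL. HSPB11, counted here with the small heat shock proteins, is now named IFT25.

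Hep3B and Huh7 are established human hepatoma cell lines. Hep3B-C is the stem-like HCSC line grown from Hep3B, and Huh7-C the one grown from Huh7. No treatment was named for any of the 4 cultures. An mRNA library was sequenced once per cell line, so each group held 2 libraries from different parental lines. Culture conditions, passage and whether an HCSC line descends from 1 clone are not given in the sources used here.

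Molecular chaperones bind unfolded or partly folded proteins and help them reach or keep their shape. HSP70 proteins work in cycles of ATP hydrolysis that J-domain proteins start and that HSP110 proteins and other exchange factors reset. HSP90 receives clients from HSP70 and completes the folding of kinases and receptors, while CCT, a ring of different subunits, folds actin and tubulin. Many of these genes are targets of the heat shock factor HSF1. Those of the endoplasmic reticulum (ER) answer instead to the unfolded protein response, a pathway that is in constant use in hepatocytes because they secrete much of the plasma protein.

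The start regions of 8 members that the results turn on are shown first, because they carry the letters by which these classes of chaperone gene are known. Windows came from the RefSeq table of GRCh38.p14, which held a start region for 75 of the 86 members. The authors aligned reads to an older build, so the coordinates are annotation only and no read was placed in them. Both strands of the 300 bases around each start, from 250 before to 50 after, were searched for 3 kinds of letters. These were the heat shock unit in alternation (GAA, any 2 bases, TTC, or the reverse order, as 2 units or as 3), the ER stress element (CCAAT, any 9 bases, CCACG) and TATAAA. A match of 3 units holds matches of 2 units within it. The 75 members had 101 windows, and a gene counted as holding a match if any of its windows did. Where a gene had several windows, the one shown is the first that held the marked letters.

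The ER stress element was found in HSPA5 (BiP, the HSP70 of the ER) and HSP90B1 (GRP94, the HSP90 of the ER). Capitals mark it in these 250 bases before the start, printed 5′ to 3′ on the strand of the gene. HSPA5 lies at chr9:125241344-125241593, minus strand, and HSP90B1 at chr12:103930160-103930409, plus strand.
HSPA5: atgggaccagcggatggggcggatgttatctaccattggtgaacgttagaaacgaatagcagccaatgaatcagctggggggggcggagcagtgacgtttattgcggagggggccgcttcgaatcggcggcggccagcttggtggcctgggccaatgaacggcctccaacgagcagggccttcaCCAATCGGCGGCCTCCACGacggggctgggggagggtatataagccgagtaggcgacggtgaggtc
HSP90B1: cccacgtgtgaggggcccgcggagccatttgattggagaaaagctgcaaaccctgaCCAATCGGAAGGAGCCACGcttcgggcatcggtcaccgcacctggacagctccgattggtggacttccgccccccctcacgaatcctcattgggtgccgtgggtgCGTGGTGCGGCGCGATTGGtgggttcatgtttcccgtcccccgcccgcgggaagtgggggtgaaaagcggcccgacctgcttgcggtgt

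Runs of 3 heat shock units were found in HSPA8 (HSC70, the constitutive cytosolic HSP70), HSP90AA1 and HSP90AB1 (the cytosolic HSP90 pair) and HSPD1 (HSP60). Capitals mark the 3 units. HSPA8 lies at chr11:123062137-123062386, minus strand, HSP90AA1 at chr14:102087045-102087294, minus strand, HSP90AB1 at chr6:44247693-44247942, plus strand, and HSPD1 at chr2:197499841-197500090, minus strand. In HSPD1 the 2 matches overlap. HSP90AA1 and HSPD1 had 2 windows each and HSP90AB1 had 3.
HSPA8: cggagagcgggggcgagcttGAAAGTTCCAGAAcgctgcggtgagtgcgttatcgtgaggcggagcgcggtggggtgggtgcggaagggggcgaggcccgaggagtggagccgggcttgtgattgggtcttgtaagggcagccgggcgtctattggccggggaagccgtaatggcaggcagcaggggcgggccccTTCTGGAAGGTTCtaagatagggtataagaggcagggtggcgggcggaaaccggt
HSP90AA1: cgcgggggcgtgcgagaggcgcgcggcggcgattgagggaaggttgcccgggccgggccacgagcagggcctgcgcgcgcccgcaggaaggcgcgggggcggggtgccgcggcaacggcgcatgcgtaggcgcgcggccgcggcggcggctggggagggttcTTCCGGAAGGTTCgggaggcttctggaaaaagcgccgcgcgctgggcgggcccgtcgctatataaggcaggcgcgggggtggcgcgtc
HSP90AB1: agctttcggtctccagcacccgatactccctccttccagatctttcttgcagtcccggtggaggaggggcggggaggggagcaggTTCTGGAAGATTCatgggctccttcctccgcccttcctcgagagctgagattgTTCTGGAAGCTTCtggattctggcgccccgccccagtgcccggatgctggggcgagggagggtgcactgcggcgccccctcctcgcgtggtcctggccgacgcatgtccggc
HSPD1: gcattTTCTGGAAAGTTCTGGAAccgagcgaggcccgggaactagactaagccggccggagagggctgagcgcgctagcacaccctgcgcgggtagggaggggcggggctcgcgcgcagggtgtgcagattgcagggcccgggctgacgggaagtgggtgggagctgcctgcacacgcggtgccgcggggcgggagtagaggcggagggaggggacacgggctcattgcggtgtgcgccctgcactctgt

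HSPA1A and HSPA1B, the stress-inducible HSP70 genes, are near-copies in the major histocompatibility complex. They are shown because reads may be shared between them. Capitals mark 2 heat shock units and TATAAA. HSPA1A lies at chr6:31815293-31815542 and HSPA1B at chr6:31827488-31827737, both on the plus strand. Of 249 positions aligned with a shift of 1 base, 14 differed (94.4% identical).
HSPA1A: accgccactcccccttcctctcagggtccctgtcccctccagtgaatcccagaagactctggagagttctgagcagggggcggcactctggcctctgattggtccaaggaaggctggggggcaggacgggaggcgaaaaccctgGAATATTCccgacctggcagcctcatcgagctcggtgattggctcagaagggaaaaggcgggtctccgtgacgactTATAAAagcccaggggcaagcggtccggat
HSPA1B: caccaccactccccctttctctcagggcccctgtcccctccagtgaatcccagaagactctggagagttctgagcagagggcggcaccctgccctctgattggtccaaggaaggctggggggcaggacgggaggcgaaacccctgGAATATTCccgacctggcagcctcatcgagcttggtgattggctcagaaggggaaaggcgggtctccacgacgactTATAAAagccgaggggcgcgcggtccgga

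Over all 75 members with a window, 7 (9.33%) held 3 units, namely DNAJA1, DNAJB6, HSP90AA1, HSP90AB1, HSPA6, HSPA8 and HSPD1, against 0.608% of the 27305 genes in the table. Matches of 2 units stood in 25 members (33.3%) and in 16.2% of all genes. The ER stress element stood in 2 members (2.67%) and in 0.0916% of all genes. TATAAA stood in 10 members (13.3%) and in 14% of all genes. Among the 12679 genes of the count tables with a window, the shares were 0.505% for 3 units, 14.1% for 2 units, 0.142% for the ER stress element and 9.91% for TATAAA. Of 13 members on a list of textbook HSF1 targets, 11 held 2 units and 6 held 3, while 0 of 7 ER members with a window held either. These are matches of letters, and no binding was measured.

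Together the members took 53305 of 2896418 gene counts in Hep3B against 85552 of 4641927 in Hep3B-C, and 96200 of 4537510 in Huh7 against 117159 of 4333808 in Huh7-C. This was 1.84%, 1.84%, 2.12% and 2.7% of each library. At these depths 3 counts stood at 0.646 to 1.04 CPM (the count scaled to the total gene count of its library), which was taken as the smallest level to be read. Between 65 and 72 members had at least 10 counts in a library. Intervals, standard errors (SE) and this floor cover counting error only, since reads were not traced to molecules. All 13 hepatocyte markers checked (ALB, AFP, HNF4A and others) had at least 10 counts in each library, with a summed level of 62384.0 CPM in Hep3B against 72433.5 in Hep3B-C, and 56079.4 in Huh7 against 29534.5 in Huh7-C. Of other cell types, PTPRC, CD3E and CDH5 were at 0 in all 4 libraries. The summed levels of leukocyte markers (99.8 to 270.1 CPM, all of it CD68), endothelial markers (2.76 to 21.5 CPM), fibroblast markers (0.215 to 15 CPM) and cholangiocyte markers (58.8 to 280.3 CPM) were low beside these.

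The question asked of each pair was which genes differ between stem-like and parental hepatoma cells. The log2 fold-change is the log2 ratio of CPM, HCSC over HCC, with 0.5 added to each count. A gene was called at an FDR of at most 0.01 in a Poisson (Audic-Claverie) test, adjusted over all genes of the pair, and a log2 fold-change of 1 or more in either direction. The test compares 2 libraries, so no call had a replicate check. Where 4 levels are given without names, they stand in the order Hep3B, Hep3B-C, Huh7, Huh7-C, and fold-changes given as a pair are those of Hep3B-C and then Huh7-C, each ± its SE. Fewer cells that express a gene and less RNA per cell cannot be told apart in such bulk data. In the Hep3B pair, 7 of 81 members were called up (8.64%), where 13.2% of all 15480 genes were, and 24 were called down (29.6%), where 30.4% of all genes were. In the Huh7 pair, 1 of 84 members was called up (1.19%, all genes 4.19%) and 5 were called down (5.95%, all genes 4.15%). These shares were at or under the background in all but the last case, and there the members were 5 genes.

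Library size and GC content bear on every value of the Hep3B pair. TMM library sizes move every Hep3B-C fold-change up by 0.48 and DESeq2 size factors by 0.53 (log2), against shifts of −0.04 and −0.07 in Huh7-C. With TMM the split in Hep3B-C was 15 members up (18.5%, all genes 19.7%) and 11 down (13.6%, all genes 20.2%) in place of 7 and 24. The fold-change in Hep3B-C also went with the GC content of the transcript across genes. Spearman's rho was 0.56 over 70 members and 0.61 over 12228 genes with at least 10 counts in the pair, which share the same 2 libraries. In Huh7-C it was 0.03 over 73 members and −0.06 over 11836 genes. With gene length, rho was −0.21 over members and −0.41 over all genes in Hep3B-C. In Huh7-C the rho with length had the other sign, at 0.16 and 0.29. Members called up in Hep3B-C had a median GC content of 56.5% and those called down 42%. After the trends on GC content and gene length were taken out, 4 members were called up (HSP90AB1, CCT5, HSPA8 and TCP1), which was 4.94% beside 4.44% of all genes, and 14 down, which was 17.3% beside 23% of all genes. The part of GC content in each fold-change was not tested.

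**Figure D1:**
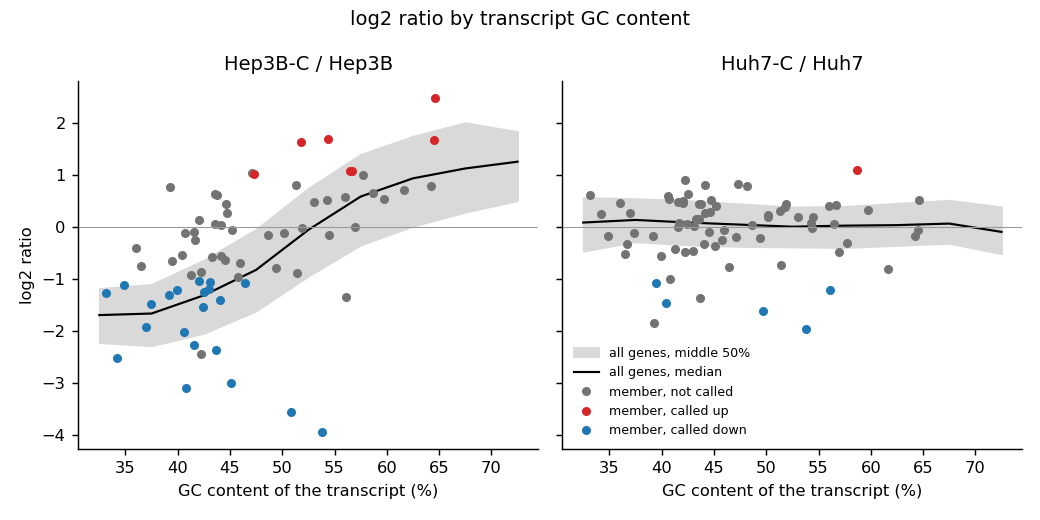
Log2 fold-change (HCSC/HCC, vertical axis) against transcript GC content in percent (horizontal axis) for each member with at least 10 counts, Hep3B-C on 1 panel and Huh7-C on the other, with members called up in red and called down in blue. The grey band holds the middle 50% of all genes in bins of 5 percentage points and the line is their median. In Hep3B-C the median of all genes climbs from −1.70 at the lowest GC content drawn with members to 0.93 at the highest, and members climb with it, while in Huh7-C both are flat.

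By summed level, the families differed between the pairs by different amounts. All members together stood at 18403.8 CPM in Hep3B and 18430.3 CPM in Hep3B-C, a log2 fold-change of 0.00 (0.49 with TMM). In the Huh7 pair they stood at 21201.1 and 27033.7 CPM, a log2 fold-change of 0.35 ± 0.006 (SE). The HSPB sum differed most in Hep3B-C, from 154.7 to 442.3 CPM (log2 1.51 ± 0.075), and it was 489.9 and 459.2 CPM in the Huh7 pair (−0.09 ± 0.045). HSPB1 alone held 396 of the 448 HSPB counts in Hep3B and 2009 of 2053 in Hep3B-C. Without the GC and length trends its fold-change in Hep3B-C was −0.39. Of 3 HSPB members with at least 10 counts in the Hep3B pair, 2 were below 0, with a median of −0.76. CCT had a higher sum in both HCSC lines, from 2823.1 to 3934.8 CPM for the Hep3B pair (0.48 ± 0.019) and 4344.9 to 5712.1 CPM for the Huh7 pair (0.39 ± 0.014). The HSP70/HSP110 sum was also higher in both, from 3889.3 to 4303.8 CPM (0.15 ± 0.017) and from 7571.3 to 9544.3 CPM (0.33 ± 0.011). The HSP60/HSP10 sum went from 1133.8 to 1212.4 CPM (0.10 ± 0.032) and from 1295.0 to 1739.1 CPM (0.43 ± 0.025).

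The sum of HSP90 genes was lower in Hep3B-C (7950.5 to 6670.1 CPM, −0.25 ± 0.013, but 0.23 with TMM, and without the pseudogenes 6832.6 to 6594.9 CPM, −0.05 or 0.43 with TMM) and higher in Huh7-C (4827.3 to 7118.0 CPM, 0.56 ± 0.013). DNAJC genes summed to 1396.2 CPM in Hep3B and 908.7 CPM in Hep3B-C (−0.62 ± 0.032, and −0.14 with TMM), against 1217.4 and 1182.1 CPM in the Huh7 pair (−0.04 ± 0.028). DNAJA and DNAJB sums were lower in Hep3B-C by total counts (−0.20 and −0.29) but not with TMM (0.28 and 0.20). In Huh7-C they differed by −0.04 and −0.33. The other HSP symbols summed to 73.9, 136.6, 104.5 and 127.6 CPM in Hep3B, Hep3B-C, Huh7 and Huh7-C. Most of a family's sum came from few genes, and the 5 members with the highest level per length held 47.6% to 52.2% of member counts in each library.

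**Figure D2:**
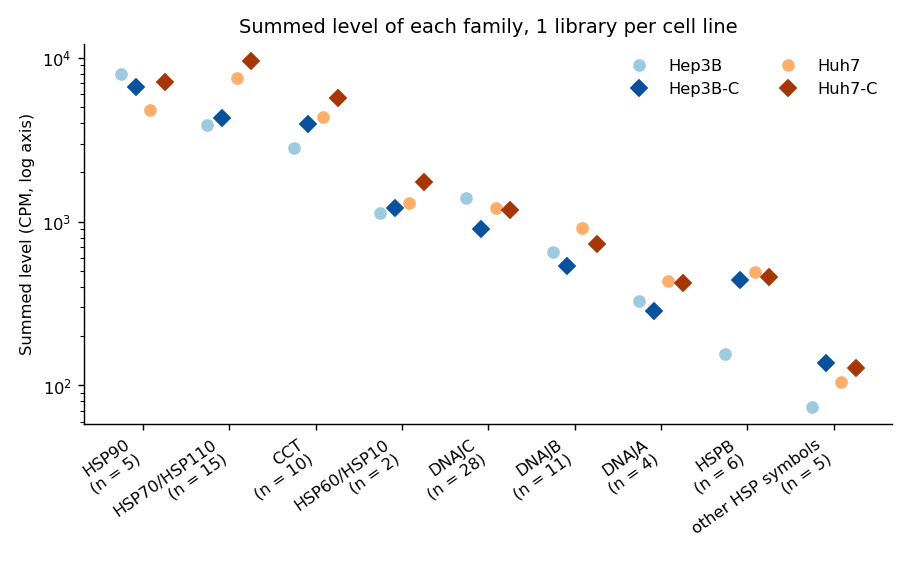
Summed level of each family in CPM (log axis) in the 4 cell lines, with circles for HCC lines and diamonds for HCSC lines. Values compare cell lines within a family, not families with each other, since gene lengths differ. The HSPB sum lies lowest in Hep3B (154.7 CPM) and between 442.3 and 489.9 CPM in the other cell lines, and the CCT sum is higher in each HCSC line than in its parent. Most of the HSPB sum is HSPB1.

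Among cytosolic HSP70 genes, HSPA8 was the most abundant member in both Huh7 cultures by RPKM (CPM per kilobase of gene length, which compares genes). It stood at 1712.8 CPM in Hep3B against 2628.6 in Hep3B-C, and 4542.1 in Huh7 against 6121.6 in Huh7-C. Each HCSC line was above its parent, with log2 fold-changes of 0.62 ± 0.02 and 0.43 ± 0.01, under the threshold for a call in both pairs (1.10 and called up in Hep3B-C with TMM). The inducible HSPA1A stood at 6.91, 10.1, 29.5 and 37.1 CPM in the same order, with fold-changes of 0.53 ± 0.38 and 0.33 ± 0.17 that were not called. HSPA1B stood at 15.2, 23.9, 8.6 and 18.5 CPM. It rose in Huh7-C (log2 1.09 ± 0.28, FDR 0.0004) and was not called in Hep3B-C (0.64 ± 0.26, FDR 0.019, but 1.13 and called with TMM). Without the GC and length trends its Hep3B-C fold-change was −0.54. HSPA1B was the only member called up in the Huh7 pair. HSPA1B took 68.8% (95% exact interval 55.9 to 79.8) of the counts of the copies in Hep3B, 70.3% (62.5 to 77.3) in Hep3B-C, 22.5% (16.5 to 29.5) in Huh7 and 33.2% (27.3 to 39.5) in Huh7-C. How the authors assigned reads that match both copies is not given in the sources used here, and with the counts summed the fold-changes were 0.62 ± 0.213 and 0.54 ± 0.144, neither past the size of a call (1.10 with TMM in Hep3B-C, which is past it). HSPA8 exceeded HSPA1A 165.2- to 278.9-fold per length in the 4 libraries. HSPA6, which is silent in most unstressed cells, had 1 count or fewer in every library.

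Other HSP70 genes differed at low levels. HSPA2, best known from the testis, fell in Huh7-C from 136 to 56 counts (30 to 12.9 CPM, log2 −1.21 ± 0.23, FDR 2.7e-07). In the Hep3B pair it had 13 and 8 counts (−1.35 ± 0.63, not called). HSPA1L, a relative of HSPA1A beside it in the genome, fell in Huh7-C from 43 to 13 counts (−1.62 ± 0.45, FDR 0.00048) and had 4 and 5 counts in the Hep3B pair. HSPA14, a ribosome-associated HSP70, stood at 17.6, 8.4, 16.1 and 16.2 CPM in Hep3B, Hep3B-C, Huh7 and Huh7-C. It fell in Hep3B-C (−1.06 ± 0.31, but −0.58 and not called with TMM) and not in Huh7-C (0.01 ± 0.24). HSPA12A was listed for the Huh7 pair alone, with 32 and 53 counts (0.79 ± 0.32, not called).

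The HSP110 genes, which exchange the nucleotide of HSP70, lay on opposite sides of 0 in the 2 pairs by total counts. HSPH1 (HSP105) stood at 135.0 CPM in Hep3B against 124.3 in Hep3B-C, and 142.4 in Huh7 against 206.3 in Huh7-C, with fold-changes of −0.12 ± 0.09 (0.36 with TMM) and 0.53 ± 0.07. HSPA4 (APG-2) had fold-changes of −0.58 ± 0.07 and 0.15 ± 0.04 and HSPA4L −1.26 ± 0.27 and 0.63 ± 0.16. Of these 3 genes only HSPA4L in Hep3B-C was called (down, and not with TMM, at −0.78). The median over the 3 was −0.58 and 0.53, beside −0.60 and 0.06 over all genes with at least 10 counts.

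HSP90AB1, the constitutive cytosolic HSP90, was the most abundant member per length in Hep3B-C (1378.4 RPKM). It stood at 1739.4 CPM in Hep3B against 3498.3 in Hep3B-C, and 2529.1 in Huh7 against 4482.2 in Huh7-C. Both HCSC lines were above both HCC lines. HSP90AB1 rose in Hep3B-C (1.01 ± 0.02) and had a fold-change of 0.83 ± 0.02 in Huh7-C, short of the threshold. Its call in Hep3B-C depended on a near-copy. HSP90AB2P, a pseudogene of HSP90AB1, stood at 1117.6, 75.2, 136.4 and 179.5 CPM in the same order. It fell by 3.89 ± 0.08 on the log2 scale in Hep3B-C, the largest change of any member with at least 20 counts, and was not called in Huh7-C (0.40 ± 0.08). The pseudogene took 39.1% (95% exact interval 38.1 to 40.2) of the counts of both in Hep3B, and 2.1% (1.89 to 2.33), 5.12% (4.73 to 5.53) and 3.85% (3.59 to 4.13) in Hep3B-C, Huh7 and Huh7-C. With the counts summed, the level was 2857.0 CPM in Hep3B and 3573.5 in Hep3B-C, a fold-change of 0.32 ± 0.019 in place of 1.01, and 0.81 ± 0.017 in Huh7-C. Hep3B therefore stood apart from the other libraries in how reads fell on the copies, and whether this was transcription or read assignment was not tested.

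The inducible HSP90AA1 stood at 2198.2 CPM in Hep3B against 2097.8 in Hep3B-C, and 790.1 in Huh7 against 1034.4 in Huh7-C. The lines of the Hep3B pair were above those of the Huh7 pair, and neither fold-change was called (−0.07 ± 0.02, or 0.42 with TMM, and 0.39 ± 0.03). Per length, HSP90AA1 stood at 0.826 of HSP90AB1 in Hep3B against 0.392 in Hep3B-C, and 0.204 in Huh7 against 0.151 in Huh7-C, so the ratio was lower in each HCSC line than in its parent. In Hep3B this ratio rests on the HSP90AB1 counts without the pseudogene.

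The ER list held 8 members, without the ER membrane J-proteins DNAJB12 and DNAJB14. All 8 had fold-changes below 0 in Hep3B-C (also with TMM), 5 of them were called down (1 with TMM), and the median was −1.10, beside −0.60 over all genes. In Huh7-C, 7 of 8 were below 0, 1 was called down, and the median was −0.38, beside 0.06. Among all genes with at least 10 counts, 37% were called down in Hep3B-C and 5.16% in Huh7-C. ER chaperones outside the symbol rule lay on both sides of 0 in Hep3B-C. HYOU1 had 0.52 and SIL1 1.46 (SIL1 called up), while CANX had −0.53 and CALR −0.15. Without the GC and length trends HYOU1 had 0.14 and SIL1 0.11 (not called), while CANX had 0.71 and CALR −1.07 (called down). The summed level of the 8 was 4836.0 CPM in Hep3B against 2057.8 in Hep3B-C, and 3590.3 in Huh7 against 3332.9 in Huh7-C. Hep3B was highest and Hep3B-C lowest. Their transcripts have GC contents of 34.9% to 51.4%, and after the GC and length trends were taken out the median in Hep3B-C was −0.14, with HSPA13, DNAJB9 and DNAJC3 above 0. All genes then had a median of −0.49, so the list lay above it in place of below it. With TMM and without both trends the medians in Hep3B-C were 0.34 over the list and −0.01 over all genes.

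HSP90B1 was the most abundant member per length in Hep3B (1041.4 RPKM). It stood at 2895.0, 998.7, 1371.7 and 1421.8 CPM in Hep3B, Hep3B-C, Huh7 and Huh7-C. HSP90B1 fell in Hep3B-C (−1.54 ± 0.03, and −1.05 with TMM, still called), but the fold-change was −0.84 without the GC and length trends. In Huh7-C it was 0.05 ± 0.03. HSPA5, which carries the same element in its start region, stood at 1175.6, 728.1, 1496.0 and 1428.1 CPM, with fold-changes of −0.69 ± 0.04 and −0.07 ± 0.03 that were not called. Per length, HSP90B1 exceeded HSPA5 3.51-fold in Hep3B against 1.96-fold in Hep3B-C, and 1.31-fold in Huh7 against 1.42-fold in Huh7-C.

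The J-domain partners of HSPA5 differed between the pairs. DNAJB9 (ERdj4), a target of the unfolded protein response, stood at 13.8, 9.48, 35.3 and 12.7 CPM. It fell in Huh7-C (−1.47 ± 0.22, FDR 4.1e-11) and was not called in Hep3B-C (−0.54 ± 0.31). DNAJB11 (ERdj3) stood at 269.6, 127.1, 369.1 and 216.2 CPM. Both HCSC lines were below their parents, with fold-changes of −1.08 ± 0.08 (called, but −0.60 and not called with TMM) and −0.77 ± 0.06 (not called). DNAJC3 (p58IPK) fell in Hep3B-C (127.4 to 55.1 CPM, −1.21 ± 0.12) and had −0.57 ± 0.13 in Huh7-C. DNAJC10 (ERdj5), an ER reductase, fell from 266.2 to 95.2 CPM in Hep3B-C (−1.48 ± 0.09), with −0.13 ± 0.08 in Huh7-C. DNAJC1 (ERdj1), an ER membrane J-protein, had −0.90 ± 0.19 and −0.74 ± 0.14. HSPA13, a microsomal HSP70, fell in Hep3B-C (44.9 to 20.7 CPM, −1.12 ± 0.19) and had −0.18 ± 0.16 in Huh7-C. Neither DNAJC3, DNAJC10 nor HSPA13 was called with TMM.

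The heat-inducible list (13 textbook HSF1 targets, 12 with 10 or more counts per pair) had medians above those of all genes. In Hep3B-C its median was 0.31, beside −0.60 over all genes, with 7 of 12 above 0, HSPB1 and HSP90AB1 called up and DNAJB4 called down. Without the GC and length trends the median there was −0.08, beside −0.49 over all genes, with 6 of 12 above 0. In Huh7-C the median was 0.41, beside 0.06, with 11 of 12 above 0 and HSPA1B called up. The summed level was 7411.2 CPM in Hep3B and 10376.1 in Hep3B-C, and 10201.0 in Huh7 and 14521.9 in Huh7-C (log2 0.49 ± 0.012 and 0.51 ± 0.009). DNAJB1 (HSP40), the main J-domain partner of HSPA8, stood at 134.0, 186.8, 193.7 and 219.9 CPM in Hep3B, Hep3B-C, Huh7 and Huh7-C, with 0.48 ± 0.09 and 0.18 ± 0.07, not called. DNAJA1 stood at 183.7, 154.5, 196.6 and 206.7 CPM (−0.25 ± 0.08, or 0.23 with TMM, and 0.07 ± 0.07).

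**Figure D3:**
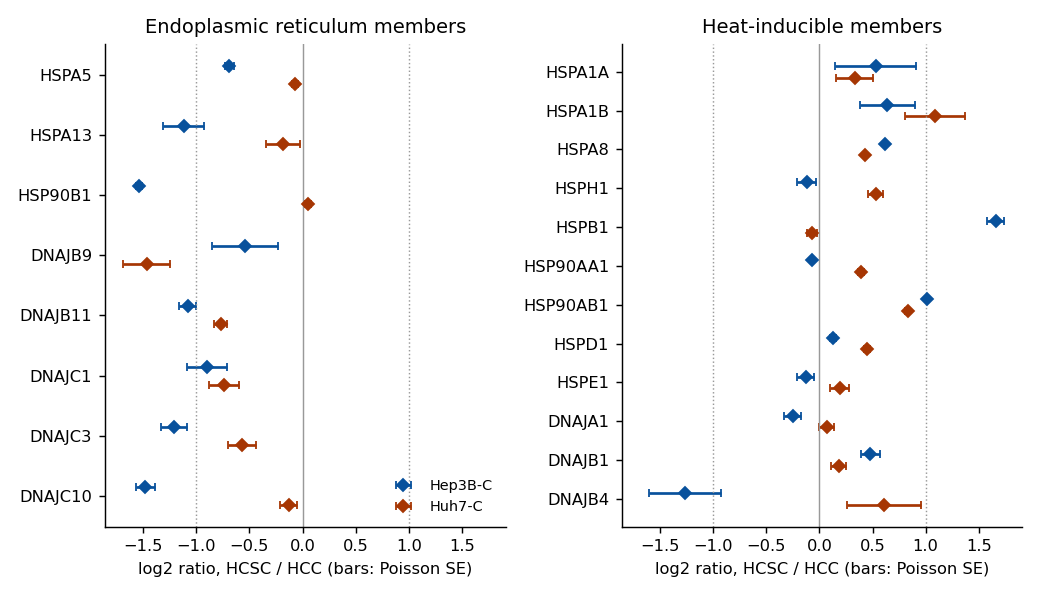
Log2 fold-change (HCSC/HCC) with its Poisson SE for the 8 members of the ER list and the 12 heat-inducible members with at least 10 counts, in Hep3B-C and Huh7-C. Dotted lines stand at −1 and 1. The listed ER members lie below 0 in Hep3B-C (−1.54 to −0.54), and heat-inducible members lie between −1.27 and 1.66 there and between −0.07 and 1.09 in Huh7-C.

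Of the mitochondrial chaperones, HSPA9 (mortalin) and the HSP60 gene HSPD1 were above their parent in both HCSC lines, by less than a call needs. HSPA9 stood at 455.4, 548.7, 774.0 and 1111.5 CPM in Hep3B, Hep3B-C, Huh7 and Huh7-C (0.27 ± 0.05 and 0.52 ± 0.03). HSPD1 stood at 962.2, 1055.4, 1177.1 and 1604.6 CPM (0.13 ± 0.03 and 0.45 ± 0.03). HSPE1 (HSP10), which caps the HSPD1 ring and shares its start region, stood at 171.6, 157.0, 117.9 and 134.5 CPM (−0.13 ± 0.08, or 0.35 with TMM, and 0.19 ± 0.09). Per length, HSPD1 exceeded HSPE1 2.3-fold in Hep3B against 2.76-fold in Hep3B-C, and 4.09-fold in Huh7 against 4.89-fold in Huh7-C. DNAJC30, a mitochondrial J-protein, stood at 7.25, 23.7, 17.9 and 17.5 CPM, so that Hep3B was lower than the other libraries. It rose in Hep3B-C (1.68 ± 0.34, FDR 1.1e-07) and had −0.03 ± 0.23 in Huh7-C. Without the GC and length trends the fold-change of DNAJC30 in Hep3B-C was 0.90, short of a call. DNAJC19, a part of the import motor of the inner membrane, fell in Huh7-C from 67 to 30 counts (−1.08 ± 0.31, FDR 0.0017). This call was lost without the length trend (−0.88), without the GC and length trends (−0.86) and with 5 added to each count (−0.97). In Hep3B-C it had −0.66 ± 0.24, not called. The median of the mitochondrial list was 0.27 over 7 members in Hep3B-C and 0.20 over 8 in Huh7-C, with 1 called up and 1 called down in all. The median in Hep3B-C was −0.18 once the GC and length trends were taken out.

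Small heat shock proteins hold unfolded proteins without ATP. HSPB1 (HSP27) stood at 136.7 CPM in Hep3B against 432.8 in Hep3B-C, and 467.4 in Huh7 against 446.5 in Huh7-C. Hep3B was low and the others lay close together. HSPB1 rose in Hep3B-C (1.66 ± 0.08), with −0.07 ± 0.05 in Huh7-C. Its transcript has a GC content of 64.5%, and without the GC and length trends the fold-change in Hep3B-C was −0.39, so direction and call both depended on that step. HSPB8 (HSP22), which works with BAG3 in chaperone-assisted autophagy, was the only member called alike in both pairs. It had 14 counts in Hep3B and 1 in Hep3B-C, a ratio of 0.0446 (95% exact interval 0.00105 to 0.293), and 30 counts in Huh7 and 7 in Huh7-C (log2 −1.96 ± 0.59, FDR 0.00094). HSPB8 therefore fell in both at low counts, and at 0.215 CPM its level in Hep3B-C was under the floor. HSPB11 was not called (−0.76 ± 0.34 and −0.53 ± 0.27), and HSPB6, HSPB9 and HSPB1P1 had 7 counts or fewer in every library.

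Of the 37 DNAJ members with at least 10 counts in the Hep3B pair, 27 were below 0, with a median of −0.66 (all genes −0.60), 3 called up and 12 called down. Among all genes with that many counts in the pair, 16.6% were called up and 37% down. In the Huh7 pair, 21 of 39 were below 0, with a median of −0.10 (all genes 0.06), and 2 were called down. By a rule of the largest change among called members with at least 20 counts, those named from Hep3B-C were DNAJB14, DNAJC25, DNAJC13 and DNAJC24 among those that fell and DNAJC30, DNAJB12 and DNAJC17 among those that rose. DNAJB14, an ER membrane J-protein, stood at 25.2, 4.31, 3.09 and 3.69 CPM in Hep3B, Hep3B-C, Huh7 and Huh7-C (−2.52 ± 0.36 and 0.25 ± 0.52). DNAJC25 stood at 12.8, 2.59, 4.85 and 4.85 CPM (−2.27 ± 0.47 and 0.00 ± 0.44). Hep3B was the highest of the 4 libraries for each of these, and Hep3B-C lay with or below the Huh7 pair.

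DNAJC13 (RME-8), a J-protein of endosomes, stood at 113.9, 27.8, 46.9 and 70.6 CPM. It fell in Hep3B-C (−2.03 ± 0.15), and in Huh7-C its fold-change was 0.59 ± 0.13, not called. DNAJC24 (DPH4), needed for diphthamide synthesis, stood at 14.2, 3.66, 5.73 and 6.92 CPM (−1.93 ± 0.41 and 0.27 ± 0.38). Without the GC and length trends, DNAJC13 had −0.46 and DNAJC24 −0.90 in Hep3B-C, neither called, while DNAJB14 (−1.49) and DNAJC25 (−1.65) stayed called. DNAJB12, the ER membrane relative of DNAJB14, stood at 24.2, 51.3, 106.0 and 110.3 CPM. It rose in Hep3B-C (1.08 ± 0.20), with 0.06 ± 0.09 in Huh7-C. DNAJC17 stood at 10.7, 22.8, 13.9 and 18.5 CPM (1.08 ± 0.29, called, and 0.41 ± 0.24). Neither stayed called without the GC and length trends (0.50 and −0.50). The remaining DNAJ members called down in Hep3B-C were DNAJB4, DNAJB7, DNAJB13, DNAJC2, DNAJC16, DNAJC21 and DNAJC28. DNAJB13 had 6 counts in Hep3B and 0 in Hep3B-C, at least 3.21-fold lower against a floor of 3 counts, and DNAJB7 had 8 and 1. DNAJC28 had 13 and 2 counts, a ratio of 0.096 (95% exact interval 0.0105 to 0.424). DNAJB4, DNAJC2, DNAJC16 and DNAJC21 had fold-changes from −1.41 to −1.05, and none of these 4 was called with TMM.

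Well-measured J-proteins that were called in neither pair spanned both directions by total counts. DNAJC5, the cysteine string protein of vesicles, stood at 38, 75.6, 125.2 and 100.6 CPM, with 0.99 ± 0.16 just under the threshold in Hep3B-C (1.47 and called with TMM) and −0.31 ± 0.09 in Huh7-C. DNAJB2 stood at 49.4, 80.6, 70.7 and 39.9 CPM, above its parent in Hep3B-C (0.70 ± 0.14) and below it in Huh7-C (−0.82 ± 0.14). DNAJA2, a cytosolic partner of HSPA8, was below its parent in both (82.2, 43.1, 112.8 and 84.5 CPM, −0.93 ± 0.14 and −0.42 ± 0.10). DNAJA3 (TID1), the mitochondrial partner of HSPA9, stood at 60.8, 86.6, 124.5 and 131.1 CPM (0.51 ± 0.13 and 0.07 ± 0.09). DNAJC7 (TPR2), which links HSP70 to HSP90, was close to its parent in both (−0.16 ± 0.11, or 0.32 with TMM, and 0.03 ± 0.08). Without the GC and length trends, DNAJC5 had 0.07 in Hep3B-C, DNAJB2 −0.49, DNAJA2 −0.08, DNAJA3 −0.20 and DNAJC7 −0.31. Of the remaining members, DNAJA4, DNAJC5B, DNAJC25-GNG10, HSPA12B and HSP90AB4P had 4 counts or fewer in every library that listed them.

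The CCT ring has 8 different subunits in equal numbers, which come from TCP1, CCT2, CCT3, CCT4, CCT5, CCT6A, CCT7 and CCT8. In Huh7-C all 8 had fold-changes above 0, from 0.15 to 0.80 with a median of 0.34 (all genes 0.06), and none was called. In Hep3B-C they ran from −0.56 to 1.62, with a median of 0.25 (all genes −0.60), 6 above 0 (7 with TMM), and CCT7 alone called up. CCT7 stood at 237.2, 728.6, 663.1 and 861.6 CPM in Hep3B, Hep3B-C, Huh7 and Huh7-C, so that Hep3B was lower than the others. It rose in Hep3B-C (1.62 ± 0.06, and 0.98 without the GC and length trends, short of a call) and had 0.38 ± 0.04 in Huh7-C. CCT3 stood at 549.6, 965.3, 784.6 and 968.4 CPM (0.81 ± 0.04 and 0.30 ± 0.03). TCP1 stood at 284.8, 435.8, 727.1 and 981.1 CPM (0.61 ± 0.06 and 0.43 ± 0.03). CCT3 and TCP1 were called up in Hep3B-C with TMM (1.30 and 1.10).

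None of the other subunits was called in either pair. CCT5 had 0.44 ± 0.05 and 0.28 ± 0.04, and CCT4 0.05 ± 0.07 and 0.15 ± 0.05. CCT8 had −0.10 ± 0.08 (0.38 with TMM) and 0.48 ± 0.04. CCT2 was lower in Hep3B-C (247.9 to 168.5 CPM, −0.56 ± 0.07) and higher in Huh7-C (379.3 to 457.6 CPM, 0.27 ± 0.05), neither called. CCT6A had 0.04 ± 0.04 and 0.80 ± 0.04. The pseudogene CCT6P1 fell in Hep3B-C from 40 to 12 counts (−2.38 ± 0.47), but took 1.94% or less of the counts it shares with CCT6A, so summing left 0.01 and 0.79. CCT6B, the testis form, had 3 counts or fewer in every library.

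Per length, the subunits were least even in Hep3B-C. CCT3 was the highest in each library, at 262.2 RPKM in Hep3B against 460.6 in Hep3B-C, and 374.3 in Huh7 against 462.0 in Huh7-C. The highest exceeded the lowest 2.73-fold in Hep3B against 5.34-fold in Hep3B-C, and 2.38-fold in Huh7 against 2.53-fold in Huh7-C. The coefficient of variation over the 8 was 46.4%, 66%, 36.4% and 35.6%. Subunits that stood highest in Hep3B-C (CCT3 and CCT7) have GC contents of 51.3% and 51.8%, against 41.6% to 44.6% for the other 6.

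**Figure D4:**
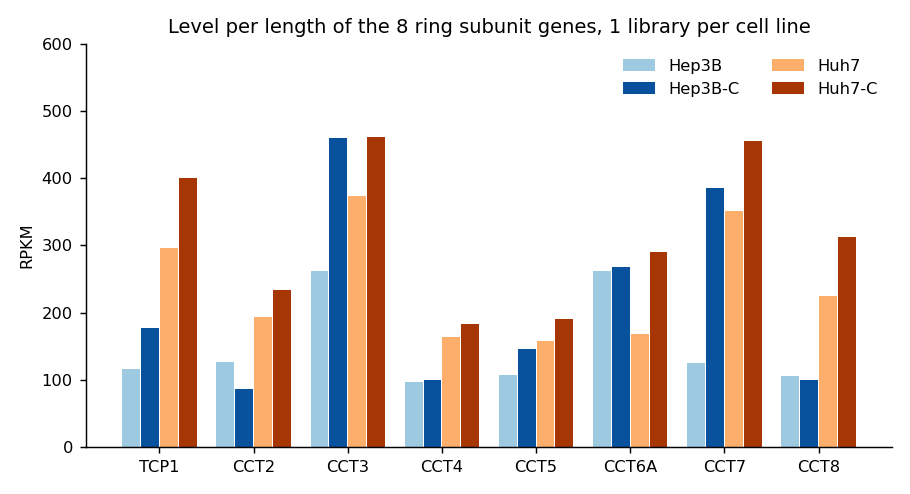
Level per length (RPKM, bars from 0) of the 8 ring subunits in each of the 4 cell lines, 1 library each. CCT3 is highest in every line, and the spread from lowest to highest is 5.34-fold in Hep3B-C and 2.38- to 2.73-fold in the others.

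HSPBP1, a nucleotide exchange factor that binds HSP70, was the member with the largest rise. It stood at 20.7 CPM in Hep3B against 116.8 in Hep3B-C, and 71.6 in Huh7 against 102.2 in Huh7-C (2.48 ± 0.20, called, and 0.51 ± 0.11, not called). Without the GC and length trends the fold-change in Hep3B-C was 0.78, not called, and the transcript's GC content is 64.6%. HSPBAP1, a protein that binds HSPB1, had 27 counts in Hep3B against 5 in Hep3B-C, and 11 in Huh7 against 8 in Huh7-C. It fell in Hep3B-C (−3.00 ± 0.67, and −2.83 without the trends) and had −0.37 ± 0.65 in Huh7-C. The non-coding HSPC072 fell in Hep3B-C from 18 counts to 2, a ratio of 0.0693 (95% exact interval 0.0078 to 0.29), and had 0 and 3 counts in the Huh7 pair. HSPC159 fell in Hep3B-C as well (36.6 to 15.9 CPM, −1.20 ± 0.22). It was not called there with TMM (−0.71) or without the GC and length trends (−0.32). HSPC157 was called in neither pair.

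The pairs were then set side by side over the members in both. Of 79 members, 0 were called up in both (all genes 0.568%), 1 was called down in both (HSPB8, all genes 1.49%), 0 were called in opposite directions (all genes 2.45%) and 43 were called in neither. With TMM, HSPA1B was called up in both (1.13 and 1.05). Its Hep3B-C fold-change was −0.54 without the GC and length trends, and −0.06 with TMM and without both trends. Among 70 members with 10 or more counts in both pairs, 18 (25.7%) were above 0 in both and 23 (32.9%) below 0 in both, beside 19.6% and 27.8% of 11151 genes. With TMM these were 26 (37.1%) and 24 (34.3%), beside 23.7% and 23.9%. Both shares were 28.6% once the GC and length trends were taken out, beside 18.7% and 33.8% of all genes. No test was run on these shares. In a joint edgeR fit of all 4 libraries with the parental line as a block, 0 of 74 members passed an adjusted p of 0.05 (all genes 0.077%, 9 of 11691). HSPB8 alone had an unadjusted p under 0.05, at a log2 fold-change of −2.74 and an adjusted p of 1 in edgeR's quasi-likelihood test. DESeq2 also called 0 members, with HSPBP1 alone under 0.05 unadjusted. The fit had 1 residual degree of freedom and a coefficient of biological variation of 0.514.

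**Figure D5:**
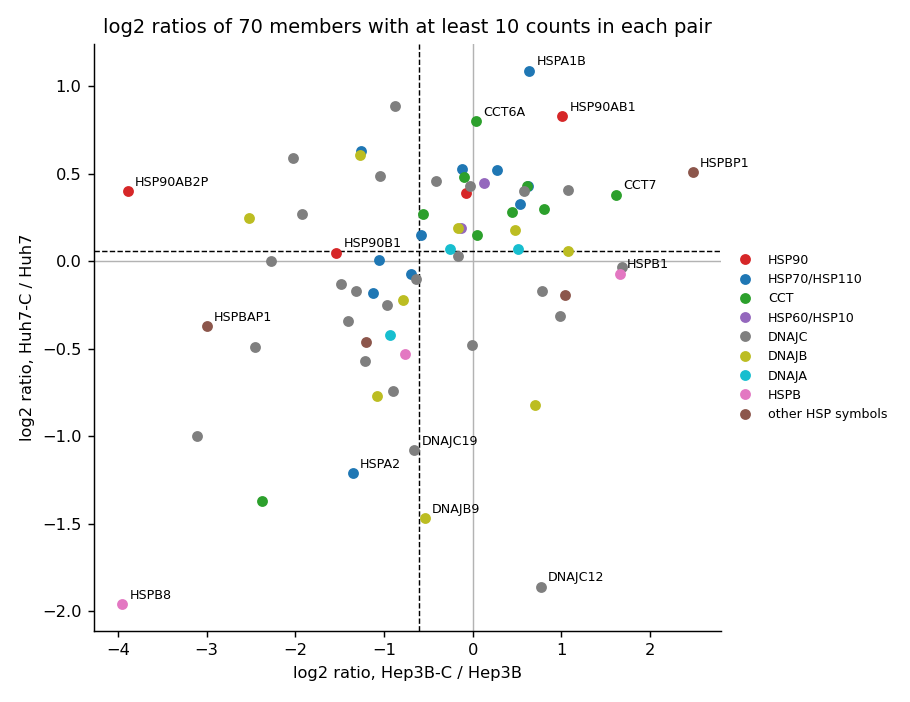
Log2 fold-change in Huh7-C (vertical axis) against that in Hep3B-C (horizontal axis) for 70 members with 10 or more counts in both pairs, coloured by family. Dashed lines mark the medians over all genes, −0.60 and 0.06. Members spread more widely in Hep3B-C (−3.95 to 2.48) than in Huh7-C (−1.96 to 1.09), and HSPB8 lies lowest in both.

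The regulators and co-chaperones that work with these families were read from lists. Beside the calls on these lists, 16.6% of all genes with at least 10 counts were called up and 37% down in Hep3B-C. In Huh7-C these shares were 5.27% and 5.16%. HSF1, the master factor of the heat shock response, stood at 45.2 CPM in Hep3B against 300.1 in Hep3B-C, and 72.5 in Huh7 against 125.8 in Huh7-C. It rose in Hep3B-C (2.73 ± 0.13, and 1.14 without the GC and length trends, still called) and had 0.79 ± 0.10 in Huh7-C, not called. HSF2 stood at 34.9, 7.54, 11.5 and 13.6 CPM and fell in Hep3B-C (−2.20 ± 0.28), with 0.25 ± 0.27 in Huh7-C. Over the 4 genes of that list (HSF1, HSF2, HSF4 and HSBP1), 1 was called up and 2 down in Hep3B-C and 0 in Huh7-C.

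Among 14 HSP90 co-chaperones, 2 were called up and 2 down in Hep3B-C and 1 up and 1 down in Huh7-C, with a median of 0.19 in both. AHSA2, a relative of the HSP90 activator AHSA1, fell in both (25.2 to 1.94 CPM, −3.63 ± 0.50, and 5.29 to 1.38 CPM, −1.85 ± 0.64). In Huh7-C, with 24 and 6 counts, AHSA2 was not called without the GC and length trends (−1.75). Among 12 HSP70 co-chaperones, 4 were called up and 1 down in Hep3B-C and 0 in Huh7-C, with medians of 0.15 and 0.20. Without the GC and length trends, 0 of these 12 were called up and 1 down in Hep3B-C, with a median of 0.22. Of 12 prefoldin and CCT co-factors, 3 were called up and 5 down in Hep3B-C, against 2 down in Huh7-C (medians −0.65 and 0.04). PFDN4, a subunit of the prefoldin complex that hands actin and tubulin to CCT, fell in both (46.3 to 14.6 CPM, −1.65 ± 0.21, and 46.9 to 14.1 CPM, −1.73 ± 0.21). TXNDC9, which binds the CCT ring, fell in both as well (−1.04 ± 0.23 and −1.14 ± 0.33), in Hep3B-C not with TMM (−0.55). Without the GC and length trends TXNDC9 was called in neither pair (−0.62 and −0.94).

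Of 11 tubulin folding cofactors and CCT substrates, 3 were called up and 1 down in Hep3B-C, against 1 down in Huh7-C (medians 0.93 and 0.00). Without the GC and length trends the median in Hep3B-C was −0.01, with 1 called up and 3 down. Of 17 other chaperones, 3 were called in each direction in Hep3B-C and 1 in each in Huh7-C (medians −0.08 and 0.11 over 16). MKKS, a chaperonin-like protein of the basal body, fell in both (55.2 to 22.2 CPM, −1.31 ± 0.18, not called with TMM at −0.83, and 49.6 to 16.4 CPM, −1.59 ± 0.20). Without the GC and length trends MKKS was not called in Hep3B-C (−0.55).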

How the data were processed

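Transcriptomes of 4 human hepatoma cultures (Hep3B, Hep3B-C, Huh7 and Huh7-C) were sequenced by the authors on an Illumina Genome Analyzer II, 1 mRNA library each. What the authors deposited were raw counts of reads for each gene (whole numbers, no scaling), with gene IDs and lengths. The authors filtered adapters and low-quality reads, aligned the rest to NCBI Build 36.1 with NextGENe and counted reads by transcript. The annotation and the handling of reads with several matches are not given in the sources used here. Genes with 0 counts in both libraries of a pair were not listed.

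Genes were joined by ID, CPM was taken over the total gene count, and RPKM was recomputed here from counts and lengths. Pairs were tested with the Audic-Claverie Poisson test (doubled tail, Benjamini-Hochberg over all genes of the pair). Calls used the thresholds of the study (FDR at most 0.01, log2 fold-change of 1 or more in size). To each count 0.5 was added. The numbers of calls were not those of the study. Here 2043 genes were called up and 4708 down in Hep3B-C, more than it reported. In Huh7-C 620 and 614 were called, fewer than it reported. Why the numbers differ was not tested. SE were those of Poisson counts. HCSC and HCC were compared with edgeR 4.0.16 (quasi-likelihood test, TMM, filterByExpr, parental line as a block, adjusted p of 0.05). The lines pair the samples because each HCSC line was grown from its parent, and deviations of same-line libraries from the group means correlated at 0.584. Genes missing from 1 pair counted as 0 there. The pair test and the removal of a length trend were tried on simulated Poisson counts. The edgeR fit with the block was tried on counts simulated with less biological variation than the data. The other fits were not simulated. DESeq2 1.42.0, R 4.3.3 and Python 3.11.15 with scipy 1.17.1, statsmodels 0.14.6, pandas 2.3.3 and numpy 2.4.6 were used.

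Medians over families and lists used members with at least 10 counts in the pair and were not tested. GC content came from GENCODE release 29 by gene ID, and trends on GC content and length were smoothed (lowess) over genes with at least 20 counts. Alternatives were TMM or DESeq2 library sizes, trends removed, 5 added to each count, count minimums, an assumed biological coefficient of variation of 0.2 or 0.4, and, for edgeR, other scaling, no filter, no block, DESeq2 and each library left out. Start regions came from the RefSeq table of GRCh38.p14. Protein features were not analysed here.

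Genes named were the main members by role, members called alike or oppositely in both pairs, the 8 called members with the largest change in each direction and pair among those with at least 20 counts, and, of the regulators, HSF1, HSF2 and those called in both pairs. Of the genes this rule names, 1 is not reported here. Other members are named to account for all calls, and HYOU1, SIL1, CANX and CALR as ER chaperones outside the symbol rule. The members and lists were chosen with earlier results of these data known. BAT3 and URI1 on the lists are in the tables as BAG6 and C19orf2.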

Additional observations from a re-analysis of the deposited data

Results flagged for a closer look

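In 4 groups with 3 or more genes measured, the median log2 fold-change lay below 0 in Hep3B-C and above 0 in Huh7-C by total counts, by TMM and by DESeq2 size factors alike. Other groups, such as DNAJA (−0.25 and 0.07), lay so by total counts but not in all of these scalings. The difference between the pairs was not tested, since each pair has 1 library per culture. For the HSP70/HSP110 family the medians were −0.58 and 0.33, a difference of −0.91 (Hep3B-C minus Huh7-C). For the HSP90 family they were −0.80 and 0.39, a difference of −1.19. Without the HSP90 pseudogenes the Hep3B-C median was −0.07, and 0.42 with TMM. For the HSP110 genes (HSPH1, HSPA4 and HSPA4L) the medians were −0.58 and 0.53, a difference of −1.11, and the Hep3B-C median was 0.18 once the GC and length trends were taken out. For the heat shock factors with HSBP1 they were −0.98 and 0.25, a difference of −1.23, over 4 and 3 genes. The median of all genes was itself −0.60 in Hep3B-C and 0.06 in Huh7-C.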

How the results depend on the processing

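With 1 library per cell line and 3 counts at up to 1.04 CPM, low members such as HSPB8, HSPA6 and HSPC072 carry wide intervals, and call counts in the Hep3B pair depended on the processing. Members called up and down in Hep3B-C (7 and 24) were 15 and 11 with TMM and 18 and 11 with DESeq2 size factors (22.2% and 13.6%, beside 20.4% and 19.5% of all genes). They were 4 and 14 without the GC and length trends, and 12 and 7 with TMM and without both trends (14.8% and 8.64%, beside 10.5% and 12.6%). With an assumed biological coefficient of variation of 0.2 they were 4 and 13 (4.94% and 16%, beside 8.88% and 20.5% of all genes). With 0.4 they were 0 and 1 (HSP90AB2P), beside 0.401% and 1.09% of all genes. In Huh7-C, 1 up and 5 down became 0 and 0 with either assumed value. All genes there had 0.655% and 1.09% with 0.2, and 0.0878% and 0.081% with 0.4. TMM together with trends removed, and the summed HSP90AB1 and HSP90AB2P counts, were chosen after seeing the data.

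Medians in Hep3B-C moved as follows. With TMM, CCT was at 0.53, HSP70/HSP110 at −0.10, DNAJ at −0.18 and ER members at −0.62. With DESeq2 size factors these were 0.58, −0.05, −0.13 and −0.57. Without the length trend CCT was at −0.10 and HSP70/HSP110 at −0.30. Without the GC and length trends CCT was at 0.52, HSP70/HSP110 at −0.07 and ER members at −0.14. With TMM and without both trends, all members were at 0.20, CCT at 1.0, HSP70/HSP110 at 0.41, DNAJ at 0.17 and ER members at 0.34. HSP70/HSP110 was at −0.35 over members with at least 50 counts. In Huh7-C the CCT median was 0.24 with DESeq2 size factors, 0.40 without the length trend, 0.42 without both trends and 0.38 with TMM and without both trends.

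Called fold-changes in Hep3B-C changed sign without the GC and length trends for HSPB1 (−0.39), DNAJC17 (−0.50), DNAJC3 (0.22), HSPA13 (0.18) and DNAJC21 (0.19). With TMM and without both trends, values changed sign for DNAJC17 (−0.02), DNAJC13 (0.02), DNAJC3 (0.70), HSPA13 (0.66), HSP90AA1 (1.09) and HSPH1 (1.38), and among others for DNAJC21 (0.68), DNAJC10 (0.27), DNAJC16 (0.23), HSPC159 (0.16), DNAJB4 (0.12), HSPA4L (0.04), HSPA4 (0.66) and HSPA5 (0.41). The cause was not tested. The edgeR count of 0 members stayed 0 with other scaling, without the filter, by DESeq2, without the replicate block (0 members with an unadjusted p under 0.05) and with each library left out, where the fit had no block and a lone library was assumed to vary like the other group (0 to 4 members with an unadjusted p under 0.05). Over all 11691 genes, 9 were called with the block and 0 without it.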
